A study of Mus musculus with 15 samples.

Results

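Of the 15 libraries in the series, 8 are described here. They compare mouse epiblast-like cells (EpiLCs) after 4 h of ERK induction (group 4h, 4 libraries) with cells that had the same 4 h and then 2 h with a MEK inhibitor (group rev, 4 libraries). The libraries were taken by their labels alone, and no measured value entered the choice. Both groups held 2 libraries of clone 4 and 2 of clone 8 of the mouse line CRAFR26, which carries a c-RAF kinase construct that 4-hydroxytamoxifen (4OHT) switches on. Cells went through 2 passages in a culture that the labels call RSC and then 48 h in EpiLC medium, with bFGF at 12 ng/ml, Activin A at 20 ng/ml and the tankyrase inhibitor XAV939 at 1 µM. They then spent 2 h with the FGF receptor inhibitor PD17 at 250 nM, and 4OHT was added at 250 nM. The groups 0h (PD17 and no 4OHT, 3 libraries) and 2h (4OHT for 2 h, 4 libraries) serve as reference levels. The question put by the design is how far the targets of ERK revert when the kinase above it is blocked.

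The labels do not name the MEK inhibitor or its dose, and they do not say whether 4OHT and PD17 stayed in the medium with it. No library was taken at the same clock time without the inhibitor, so 2 h of inhibitor and 2 further hours of culture cannot be told apart. Both clones come from 1 line, and clone 4 has a single 0h library. Nothing in the labels says that libraries of 1 clone came from separate cultures, so the p-values measure the spread between these libraries, which may be technical.

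ERK is the last kinase of the cascade that runs from RAS through RAF and MEK. Active ERK phosphorylates transcription factors, among them the ETS-family partners of SRF, and this starts immediate early genes, whose mRNAs are usually degraded quickly. Among the first targets are inhibitors of the cascade itself, the Sprouty and Spred proteins and the dual-specificity phosphatases, so their mRNA is widely read as a gauge of ERK activity. When synthesis stops, an mRNA falls at the pace of its own decay, so a short inhibitor treatment separates unstable from stable transcripts. In pluripotent cells ERK drives the exit from the naive state towards the formative state that EpiLCs represent.

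The 4h libraries stood apart from all others. Total counts were 1552022 to 6658950 in 4h and 8667880 to 13004556 in the other libraries. Mitochondrial genes took 7.21% to 12.4% of counts in 4h and 3.43% to 6.66% in rev, and ribosomal RNA took 28.2% to 44.1% over both groups. On the first principal component, with 34.98% of the variance, the 4h libraries lay between 45.67 and 71.09 and the other 11 between -31.03 and -4.829. Every value below that rests on 4h carries this difference, and the comparison of rev with 2h is given beside it where it helps. Against 2h, 124 genes were called lower in rev (0.922% of those tested) and 187 higher (1.39%). Values are CPM, counts relative to the size of the library after TMM scaling, in the order clone4_1, clone4_2, clone8_1 and clone8_2, with a single clone 4 value at 0h. A gene was called at an adjusted p under 0.05.

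EpiLC identity was checked on marker lists. Core pluripotency genes were summed at 1210 to 1330 CPM in 4h and 1020 to 1260 CPM in rev. Formative and primed genes were summed at 1040 to 1190 CPM in 4h and 1310 to 1480 CPM in rev. Naive genes were not steady, with sums of 385 to 777 CPM in 4h and 216 to 253 CPM in rev. Neural genes were present, with sums of 75.4 to 90.1 CPM in 4h and 68.7 to 81.1 CPM in rev. Mesendoderm genes were summed at 32.4 to 37.7 CPM in 4h and 34.8 to 39.6 CPM in rev. Of 10 primitive endoderm markers, 3 passed the filter on low counts. The sum over all 10 was 3.77 to 7.9 CPM in 4h and 7.37 to 9.4 CPM in rev, with Ttr at 0 in both. Of 8 trophoblast markers, 3 passed, with sums over all 8 of 6.41 to 10.6 and 3.95 to 7.12 CPM and Tpbpa at 0 in both. Of 8 fibroblast markers, 3 passed, and all 3 were called higher in rev. The filter can pass genes through groups where they are higher, so the shared direction may be partly set by it. With every library thinned to the shallowest, none of the 3 passed. The sum over all 8 was 0.377 to 6.11 CPM in 4h and 7.99 to 17.4 CPM in rev, with Postn, Lum and Fap at 0 in both. Their part in the results below was not tested.

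Of 13451 genes tested, 4140 (30.8%) were called between rev and 4h, 2105 lower in rev (15.6%) and 2035 higher (15.1%). At least 2-fold changes made up 670 of the lower and 647 of the higher calls. With scaling by total count the median of all genes moved by 0.45 on the log2 scale and calls in the higher direction made up 88.0%, compared with 49.2% under TMM, so every direction here is relative to the bulk of genes. Without a filter on low counts the share was 60.9%. Groups did not overlap, with all 4 rev libraries below all 4 of 4h, for 10.8% of tested genes, and with rev above for 11.9%. Counts of calls and of groups without overlap in the gene lists below stand against the shares of all tested genes given here.

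Feedback inhibitors fell. Of 11 Sprouty, Spred and related inhibitors listed, 10 were tested, and 5 were called lower and none higher, with a median log2 fold change of -0.68 against 0.02 over all tested genes. Spry4, which blocks the path from receptors to RAF, stood at 94.1, 105, 38.5 and 43.7 CPM in 4h and 17.4, 18, 9.73 and 10.9 CPM in rev. The groups were far apart, with 20.9% of the 4h level left (log2 fold change -2.26 ± 0.13 SE, adjusted p = 6.01e-11). It had been near 0 before induction, at 0.972, 0.869 and 0.727 CPM, so rev still lay above the uninduced cells (log2 difference 3.84, adjusted p = 1.54e-12). Spry2 read 57.4, 52.8, 37.3 and 36.2 CPM in 4h and 14.5, 12.6, 14 and 14.8 CPM in rev, with 30.8% left (log2 fold change -1.70 ± 0.18 SE, adjusted p = 1.25e-06). Il17rd, an inhibitor at the receptor, kept 44.3% (log2 fold change -1.18 ± 0.13 SE, adjusted p = 8.79e-07), and it was higher in clone 8 than in clone 4 in both groups, so the groups overlap although each clone fell. Spred2 kept 56.4% (log2 fold change -0.83 ± 0.10 SE, adjusted p = 2.52e-06) and Spred3 61.4% (log2 fold change -0.70 ± 0.16 SE, adjusted p = 0.00193). Spry1 (log2 -0.63, adjusted p = 0.0638) and Spred1 (log2 -0.31, adjusted p = 0.0978) did not pass.

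**Figure D1:**
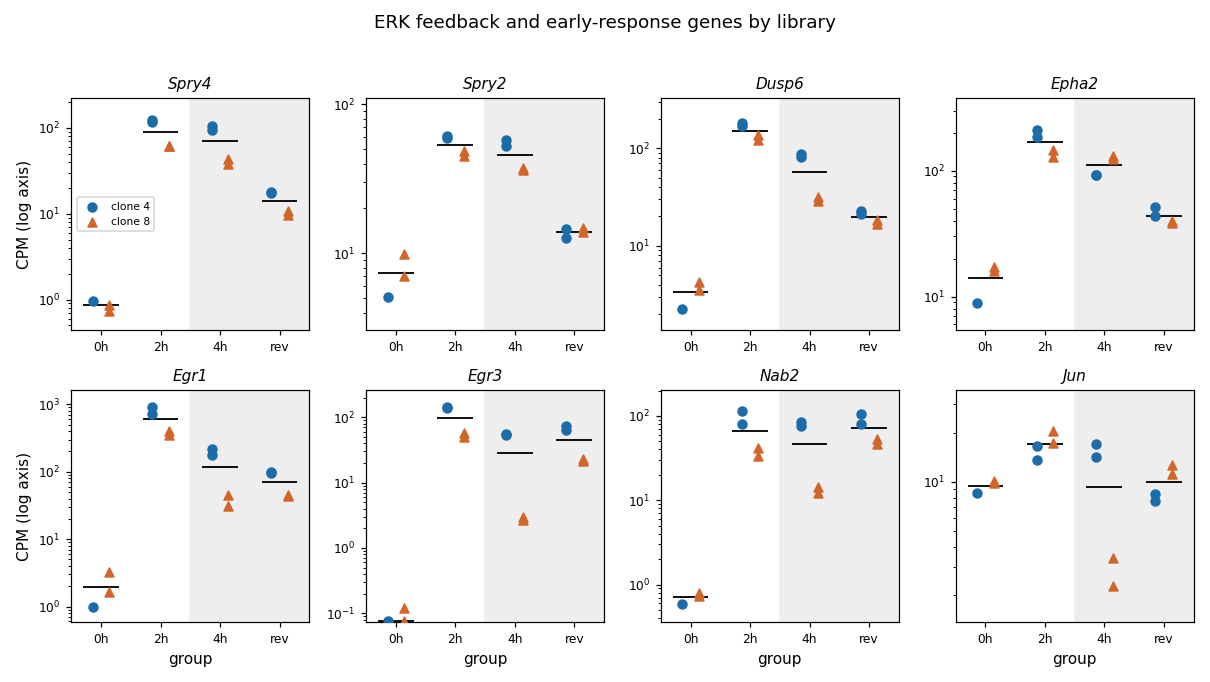
CPM per library on a log axis for 8 genes in the groups 0h, 2h, 4h and rev, with circles for clone 4, triangles for clone 8, horizontal bars for group means, shading over the 2 groups compared, and values of 0 drawn at the lower edge. Spry4, Spry2, Dusp6 and Epha2 lie lower in all 4 rev libraries than in all 4 of 4h, while the 4h libraries of clone 8 lie below those of clone 4 for Egr1, Egr3, Nab2 and Jun.

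The MAP kinase phosphatases were split. Of 11 tested, 2 were called lower and 3 higher, near the background shares, with a median of 0.24. Dusp6, the cytoplasmic ERK phosphatase, read 81.9, 86.9, 29.1 and 31.7 CPM in 4h and 23, 21.1, 18.5 and 16.9 CPM in rev, with no overlap and 37% left (log2 fold change -1.44 ± 0.30 SE, adjusted p = 0.00393). It had stood at 169, 181, 121 and 135 CPM in 2h, which was its highest group. Dusp16 was the other one called lower (log2 fold change -0.38 ± 0.11 SE, adjusted p = 0.0101). Dusp5, the nuclear ERK phosphatase, read 70.3, 71.6, 8.65 and 7.16 CPM in 4h and 32, 40.5, 20.2 and 15 CPM in rev. Clone 4 was lower in rev and clone 8 higher, and the change differed between clones by 2.11 on the log2 scale (adjusted p = 5.27e-05), with no call over both (log2 -0.16, adjusted p = 0.809). Dusp14, Dusp8 and Dusp10 were called higher, Dusp14 by 1.39 on the log2 scale (adjusted p = 0.00982, and 0.0703 without the 2 shallowest 4h libraries). Dusp10 lost its call without 4h clone8_2 (adjusted p = 0.0744). Dusp4 was not called (log2 -0.91, adjusted p = 0.0878), and neither was Dusp1, a stress- and growth-factor-induced phosphatase, at 20.8, 22, 8.65 and 4.15 CPM in 4h and 13.9, 16.9, 12.3 and 13.8 CPM in rev (adjusted p = 0.616).

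In the cascade itself 5 of 21 genes were called lower (23.8%) and 3 higher (14.3%), with a median of -0.13. Of all tested genes 15.6% were lower and 15.1% higher, so the higher calls were near the background. The adaptor Gab1 fell from 246, 305, 206 and 239 CPM to 165, 141, 114 and 115 CPM (log2 fold change -0.90 ± 0.10 SE, adjusted p = 1.22e-06), with no overlap. Mapk3, which encodes ERK1, fell (log2 fold change -0.77 ± 0.12 SE, adjusted p = 6.54e-05), as did the RAS exchange factors Sos1 and Sos2 and the scaffold Ksr1. Among those called higher were the GTPase Hras and the phosphatase Ptpn11, with log2 fold changes of 0.47 and 0.44. None of the 21 was called between rev and 2h. Among 12 ETS factors and ETS-site repressors, 3 were called lower, Etv5, Etv4 and Etv1, which encode the factors that carry FGF and ERK signals to promoters, and 2 higher, Elk4 and Ets1. Elk4 lost its call without 4h clone4_2, 4h clone8_1, 4h clone8_2, rev clone4_2, rev clone8_1 or rev clone8_2 (adjusted p = 0.0582 to 0.117), and Ets1 without 4h clone4_2, 4h clone8_1, 4h clone8_2, rev clone4_2, rev clone8_1 or rev clone8_2 (adjusted p = 0.0776 to 0.177). Etv5 read 125, 125, 141 and 132 CPM in 4h and 68.2, 76.7, 97 and 87.8 CPM in rev (log2 fold change -0.67 ± 0.08 SE, adjusted p = 2.36e-06). It was no higher in 2h than in 0h, at 80.4, 81.8, 93.6 and 86 against 84.2, 93.9 and 96.4 CPM, and 4h was its highest group. The repressor Erf had been raised from 18.5, 20 and 18.8 CPM at 0h and read 76.4, 70.1, 60.1 and 66 CPM in 4h and 65, 57.8, 55.1 and 44.7 CPM in rev (adjusted p = 0.074).

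Immediate early transcription factors were near the background between rev and 4h, and 7 of 22 were called lower in rev than in 2h and none higher, with a median of -0.82 against 2h. Of the 22 tested, 2 were called lower, Csrnp1 and Srf, and 4 higher (Mafk, Egr2, Egr4 and Atf3), with a median of 0.15 and medians of -0.6 in clone 4 and 1.06 in clone 8. Without the 2 shallowest 4h libraries 2 were lower and 1 higher than in 4h. Egr1, the zinc-finger factor at the head of this response, read 730, 910, 403 and 352 CPM in 2h, 180, 220, 31.2 and 45.6 CPM in 4h and 99.4, 96.3, 45.1 and 44.2 CPM in rev. It was highest in 2h, and the step from 4h to rev was not called (log2 -0.53, adjusted p = 0.437). Fos had come down in the same way, from 40.1, 48.5, 22.3 and 23 CPM in 2h to 4.89, 4.69, 0.911 and 1.13 in 4h and 2.66, 1.65, 1.97 and 2.28 in rev (adjusted p = 0.709). Junb read 284, 208, 52.6 and 89.6 CPM in 2h, 38.5, 38.5, 4.33 and 2.26 in 4h and 25.2, 18.7, 8.6 and 5.29 in rev (adjusted p = 0.819). For these 3 genes the 4h libraries of clone 8 were as low as, or lower than, most rev libraries. The corepressor Nab2, which binds Egr proteins and restrains them, read 0.594, 0.802 and 0.727 CPM at 0h, 75.1, 84.4, 12.1 and 14.3 in 4h and 104, 80.3, 53.6 and 46.5 in rev, and Egr3 read 55.6, 53.8, 2.96 and 2.64 in 4h and 63, 74.5, 22.8 and 21.5 in rev. Neither change was called (adjusted p = 0.0894 and 0.128), and both genes were far above 0h in every rev library. Srf lost its call without rev clone4_2 (adjusted p = 0.0689), Egr2 without 4h clone8_1, 4h clone8_2 or rev clone4_1 (adjusted p = 0.0649 to 0.121), and Mafk without 4h clone4_1, 4h clone4_2, 4h clone8_2 or rev clone8_2 (adjusted p = 0.0545 to 0.101).

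Among 25 other immediate early genes, 5 were called lower and 4 higher, near the background of 15.6% and 15.1%. Against 2h, 14 of the 25 were called lower in rev and none higher, with a median of -0.62. Pim1, a serine/threonine kinase, fell from 50.1, 41.5, 29.6 and 27.5 CPM to 13, 14.1, 12.1 and 9.55 CPM (log2 fold change -1.58 ± 0.17 SE, adjusted p = 6.12e-07), with no overlap. Zfp36l1 and Zfp36l2, RNA-binding proteins that bring AU-rich mRNAs to the decay machinery, both fell, to 38.3% and 51.2% of the 4h level (log2 fold change -1.38 ± 0.20 SE, adjusted p = 2.02e-05 and log2 fold change -0.97 ± 0.15 SE, adjusted p = 7.41e-05). Phlda1 was called lower (log2 fold change -1.48 ± 0.49 SE, adjusted p = 0.0339), reading 20.2, 29.4, 2.28 and 1.51 CPM in 4h and 5.11, 5.68, 2.26 and 2.18 CPM in rev. The fitted change was -2.22 in clone 4 and 0.18 in clone 8, a difference of 2.40 (adjusted p = 0.00342). It lost its call without 4h clone4_1, 4h clone4_2, rev clone4_1, rev clone4_2, rev clone8_1 or rev clone8_2 (adjusted p = 0.0548 to 0.123). Mcl1, which protects cells from apoptosis, and Odc1, which starts polyamine synthesis, rose (log2 fold change 0.55 ± 0.11 SE, adjusted p = 0.000466 and log2 fold change 0.42 ± 0.08 SE, adjusted p = 0.000275).

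The mRNAs that ERK induction raised were followed as a set. It was chosen on 2h against 0h, which shares no library with rev and 4h: 225 genes (1.67% of those tested) were called at least 2-fold higher, and 97 of them held at least 5 CPM over the 4h libraries. Of these 97, 26 (26.8%) were called lower in rev, 16 (16.5%) higher, and 55 (56.7%) were not called, with a median log2 fold change of -0.01. The minimum was set on 4h, which favours genes that are high there. With it set on 2h, 21 of 103 (20.4%) were lower and 24 (23.3%) higher. With no minimum 40 of 225 (17.8%) were lower and 48 (21.3%) higher, against 15.6% and 15.1% of all tested genes. In both of these settings more were higher than lower, unlike with the minimum on 4h. At least 4-fold falls were called for 4 of the 97, falls of 2-fold to 4-fold for 14 and smaller ones for 8. Those called lower had a median longest transcript of 3006 nt and 3.5 exons, and the others 3044 nt and 3 exons.

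Of the 10 largest falls in this set, the long noncoding RNA Halr1, which lies beside the Hoxa cluster, lost most. It read 13.4, 19.3, 20.5 and 18.8 CPM in 4h and 2.38, 1.96, 2.26 and 1.35 CPM in rev (log2 fold change -3.17 ± 0.22 SE, adjusted p = 1.34e-09), after 1.02, 1.06, 1.22 and 1.29 CPM in 2h. Its highest group was 4h, and all 4 rev libraries lay below all 4 of 4h. Adgre5, an adhesion receptor, fell from 38.5, 44.2, 29.4 and 30.5 CPM to 11, 9.29, 8.04 and 6.23 CPM (log2 fold change -2.05 ± 0.19 SE, adjusted p = 8.16e-08). Pmaip1, a BH3-only protein that promotes apoptosis, went from 59.3, 50.8, 65.3 and 56.5 CPM to 22.6, 19.4, 22 and 23.2 CPM (log2 fold change -1.41 ± 0.12 SE, adjusted p = 1.65e-08) and was then level with 0h, at 15.1, 26 and 20.8 CPM. Also among the 10 are Spry4, Spry2, Pim1, Phlda1 and Dusp6 and the unannotated transcript B930086L07Rik. Epha2, an Eph receptor, read 92.9, 92.3, 130 and 125 CPM in 4h and 51.7, 43.3, 38.6 and 39.7 CPM in rev (log2 fold change -1.34 ± 0.22 SE, adjusted p = 0.000484), and the fall was larger in clone 8 (difference -0.74, adjusted p = 0.0201). Smad7, an inhibitor of TGF-beta and Activin signalling, fell from 41.5, 43.2, 58 and 56.2 CPM to 18.8, 19.2, 22 and 25 CPM (log2 fold change -1.22 ± 0.10 SE, adjusted p = 9.37e-09), and Enc1, an actin-binding protein, kept 40.9% (log2 fold change -1.29 ± 0.12 SE, adjusted p = 1.18e-07).

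For other raised mRNAs no change was called, which does not show that they stayed level. Among the 10 most abundant at 4h with no call and a log2 change under 0.5 in size are Erf, Klf10, Insig1, Ier2, Irs2, Dusp5, Dnajb1, Sox13 and Mier3. Of these, Klf10, Insig1, Irs2, Dusp5 and Dnajb1 differed between the clones, Dusp5 with fitted changes of -0.97 in clone 4 and 1.14 in clone 8. Ier2, an immediate early gene, read 57.4, 56.3, 44.8 and 42.2 CPM in 4h and 37.5, 32, 41 and 38.1 CPM in rev, with all 4 rev libraries below all 4 of 4h but no call (log2 -0.41, adjusted p = 0.0814). Klf10, a repressor induced by TGF-beta and growth factors, read 81.9, 84.4, 26.6 and 26.8 CPM in 4h and 74.8, 78.2, 41.9 and 47.7 CPM in rev, against 16.8, 18.6 and 20 CPM at 0h. Irs2, the insulin receptor substrate, read 64.1, 68.4, 19.1 and 17 CPM in 4h and 43.8, 61.7, 36.2 and 35.4 CPM in rev against 20.1, 20.1 and 20.1 CPM. Insig1, which holds the sterol sensor SCAP in the endoplasmic reticulum, read 55.6, 61, 50.3 and 48.6 CPM in 4h and 114, 101, 45.8 and 42.7 CPM in rev. For Klf10 and Irs2 both rev libraries of clone 8 were above both of its 4h libraries, and the groups overlap for all 3 genes. In rev, 60 of the 71 raised mRNAs that were not called lower were still more than 2-fold above 0h, as were 15 of the 26 called lower. The same 0h libraries entered the choice of the set, which favours levels above 0h, so these counts do not measure persistence.

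Of the raised mRNAs called higher, Hmox1, heme oxygenase, read 128, 169, 65.8 and 68.6 CPM in 4h and 207, 211, 139 and 132 CPM in rev (log2 fold change 0.74 ± 0.16 SE, adjusted p = 0.00213). Krt8, a simple epithelial keratin, read 12.8, 13.3, 1.37 and 2.64 CPM in 4h and 25.6, 38.3, 19 and 12.6 CPM in rev (log2 fold change 1.90 ± 0.34 SE, adjusted p = 0.00107), and Lor, the cornified envelope protein loricrin, 17.1, 13.3, 1.14 and 1.51 CPM in 4h and 21, 28.5, 18 and 15.8 CPM in rev (log2 fold change 1.85 ± 0.43 SE, adjusted p = 0.00564). In all 3 genes the 4h libraries of clone 8 were the lowest of the 8. In 2h, Hmox1 had read 253, 258, 125 and 136 CPM, and the log2 difference of rev from 2h was -0.12 (adjusted p = 0.857).

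The promoters of 3 raised mRNAs are shown, 1 of a gene called lower and 2 of genes not called lower. They are RefSeq promoters of GRCm38, 250 bases before to 50 after the start site, written 5′ to 3′ along the gene, and positions are counted from the start site. Epha2 (chr4:141300971-141301270, + strand) stands for the mRNAs that fell, and Srxn1 (chr2:152105274-152105573, + strand), an antioxidant enzyme, and Lor (chr3:92083093-92083392, - strand) for those not called or called higher. Capitals mark the CRE motif TGACGTCA in Epha2 and the AP-1 motif TGACTCA, on either strand, in the others.
Epha2: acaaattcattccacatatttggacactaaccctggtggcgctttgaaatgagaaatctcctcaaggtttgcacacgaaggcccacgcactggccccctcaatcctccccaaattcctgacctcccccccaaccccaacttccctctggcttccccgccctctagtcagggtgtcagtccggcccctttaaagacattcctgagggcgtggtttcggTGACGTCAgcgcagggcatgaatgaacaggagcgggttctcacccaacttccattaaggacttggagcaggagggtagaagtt
Srxn1: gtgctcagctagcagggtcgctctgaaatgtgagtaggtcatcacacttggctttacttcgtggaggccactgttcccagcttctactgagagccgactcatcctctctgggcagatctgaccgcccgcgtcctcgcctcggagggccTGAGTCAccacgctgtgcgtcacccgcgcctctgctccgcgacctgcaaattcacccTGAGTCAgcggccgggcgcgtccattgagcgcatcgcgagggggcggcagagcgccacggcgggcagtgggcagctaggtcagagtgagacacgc
Lor: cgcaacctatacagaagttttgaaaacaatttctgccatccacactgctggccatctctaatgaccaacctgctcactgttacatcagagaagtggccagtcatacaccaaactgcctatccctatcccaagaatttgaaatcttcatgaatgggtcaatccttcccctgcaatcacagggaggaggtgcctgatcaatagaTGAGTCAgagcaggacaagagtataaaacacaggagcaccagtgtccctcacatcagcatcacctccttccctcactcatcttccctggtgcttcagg
The CRE begins at -33 in Epha2, and AP-1 matches begin at -102 and -45 in Srxn1 and at -48 in Lor. Of the 9890 tested genes with a promoter in the table, 4.3% hold TGACTCA and 3.71% TGACGTCA. TGACTCA stood in 2 of 17 raised mRNAs called lower and in 4 of 50 of the others, and TGACGTCA in 2 of 17 and 3 of 50. The ETS motif CCGGAAGT stood in 0 of 17 and 1 of 50, against 9.26% of all. These matches describe letters in the window and do not show binding.

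The clones responded differently for many raised mRNAs. A difference in response between the clones was called for 377 genes (2.80%), and for 44 of the 97 raised mRNAs. The median log2 fold change of the 97 was -0.27 in clone 4 and 0.38 in clone 8. Fitted changes were below 0 for 62 of 97 in clone 4 and 39 of 97 in clone 8. Nefm, a neurofilament subunit, read 133, 122, 6.15 and 7.54 CPM in 4h and 108, 110, 54.4 and 49.5 CPM in rev, and its change in clone 8 exceeded that in clone 4 by 3.15 on the log2 scale (adjusted p = 1.11e-06). Srxn1 read 108, 104, 16.8 and 18.8 CPM in 4h and 125, 151, 74.4 and 61.8 CPM in rev, a difference of 1.55 (adjusted p = 5.45e-05). For both genes clone 8 was low in 4h and higher in rev. For Myc the 4h level was 91, 98.2, 12.5 and 18.8 CPM and the rev level 20.3, 24, 15.9 and 13.3 CPM, with a difference of 2.01 (adjusted p = 6.91e-05) and no call over both (adjusted p = 0.0612). Outside the set, the AP-1 subunits Jun and Fosl2 differed as well. Jun read 17.1, 14.3, 2.28 and 3.39 CPM in 4h and 8.41, 7.64, 12.7 and 11.1 CPM in rev, a difference of 3.06 (adjusted p = 1.44e-05), and Fosl2 24.4, 22, 1.37 and 1.51 CPM in 4h and 9.04, 11, 6.63 and 6.12 CPM in rev, a difference of 3.35 (adjusted p = 0.000365). Clone 4 was lower in rev for both genes and clone 8 higher. Total counts of the 4h group were 1552022 and 6658950 in clone 4 and 6209289 and 3492073 in clone 8, and whether depth bears on the clone difference was not tested. The count of 377 fell to 195 when rev clone8_2 was left out, to 197 without rev clone4_1, to 213 without rev clone8_1, to 224 without 4h clone8_1 and to 235 without 4h clone8_2.

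**Figure D2:**
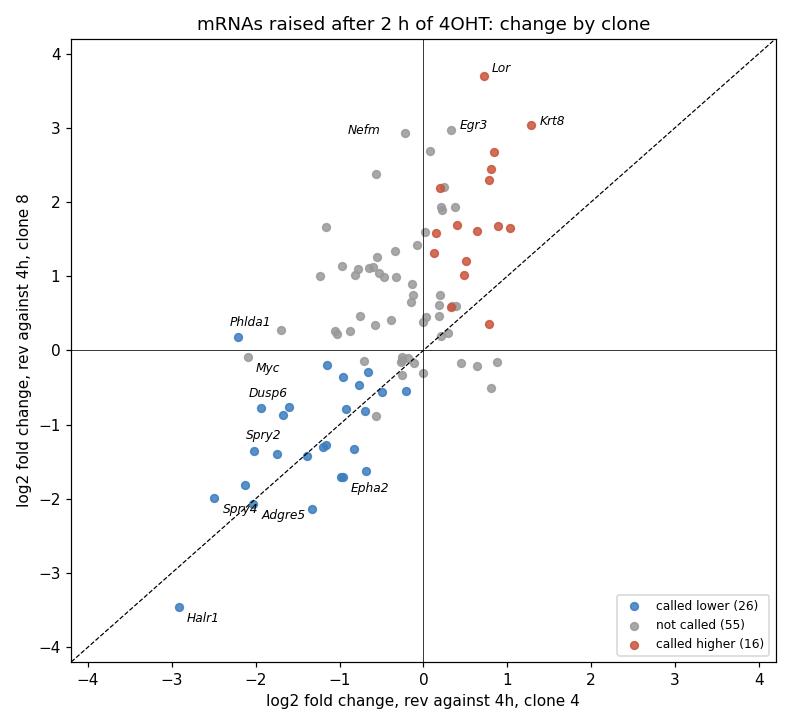
Log2 fold change of rev against 4h in clone 4 (x axis) and clone 8 (y axis) for the 97 mRNAs raised after 2 h of 4OHT, coloured by their call over both clones, with a dashed line of equal change. Spry4, Spry2, Halr1, Adgre5 and Epha2 lie below 0 in both clones, and Nefm, Egr3, Lor and Krt8 lie above the line.

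In the Myc network 3 of 10 tested genes were called, all lower. Mycn, the main Myc gene of pluripotent cells, fell from 51.9, 49.4, 102 and 110 CPM to 26, 23.6, 49.2 and 45.2 CPM (log2 fold change -1.10 ± 0.16 SE, adjusted p = 3.67e-05), and so did Max, the partner of all Myc proteins (log2 fold change -0.78 ± 0.11 SE, adjusted p = 1.06e-05), and Mxi1, an antagonist (log2 fold change -0.76 ± 0.17 SE, adjusted p = 0.0019). For Mycn both clones were lower in rev.

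mRNAs known for short or long lives were set side by side. Of 30 short-lived mRNAs, 4 were called lower (Klf2, Zfp36l1, Mycn and Ccnd1) and 3 higher (Odc1, Mcl1 and Atf3), with a median of -0.19. Both shares lie below those of all tested genes, 15.6% lower and 15.1% higher, with 13.3% of the list lower. Against 2h, 13 of the 30 were called lower in rev and none higher, with a median of -0.71, where 0.922% of all tested genes were lower. Of 25 long-lived mRNAs, 4 were called lower (Vim, Actb, Aldoa and Pfn1) and 8 higher, with a median of 0.04, and 4 and 4 without the 2 shallowest 4h libraries. Vim, an intermediate filament protein, read 258, 267, 71 and 57.7 CPM in 4h and 42.5, 48.7, 37.5 and 37 CPM in rev, after 43.7, 42.1, 32.6 and 36.5 CPM in 2h (log2 fold change -1.78 ± 0.34 SE, adjusted p = 0.00238). The rev level was 29.2% of the 4h level. Actb, cytoplasmic actin, read 2100, 2190, 1850 and 1960 CPM in 4h and 1370, 1360, 1530 and 1410 CPM in rev (log2 fold change -0.51 ± 0.06 SE, adjusted p = 2.63e-06), and 0h and 2h lay close to rev, at 1444 ± 32.7 and 1450 ± 42.1 CPM (mean ± SD, n = 3 and 4). Atf3 was at or under 3 counts in every 4h library, and its rev mean of 2.33 CPM was at least 2.13-fold higher than that floor. Ccnd1 lost its call without rev clone4_2 (adjusted p = 0.107), and Pfn1 without 4h clone4_2, 4h clone8_1, 4h clone8_2, rev clone4_1, rev clone4_2 or rev clone8_2 (adjusted p = 0.076 to 0.195).

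**Figure D3:**
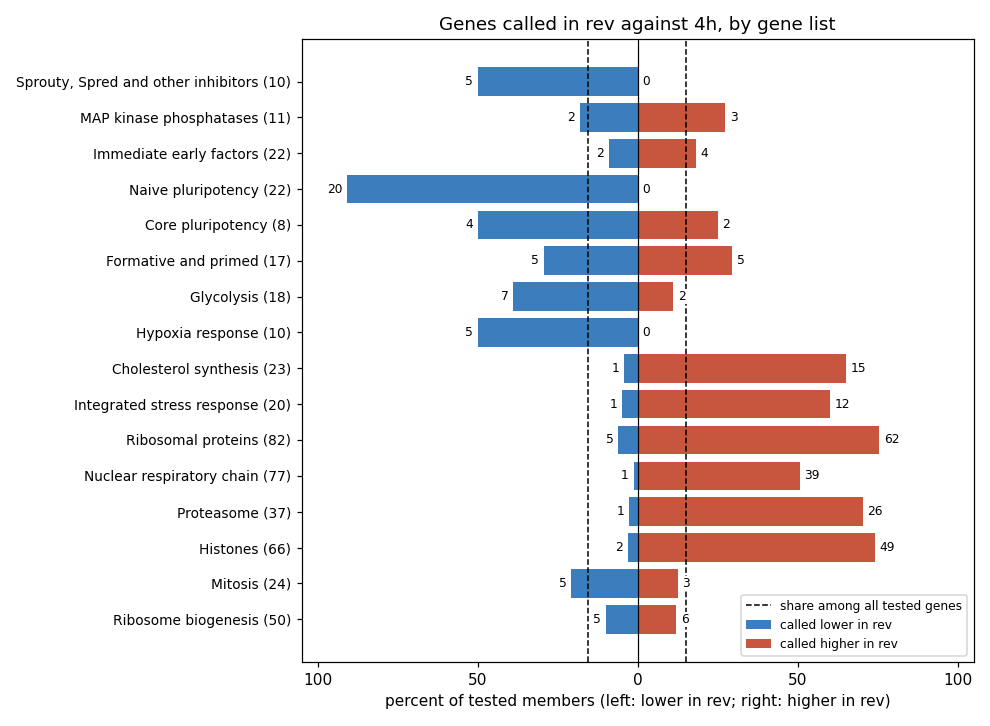
Percent of the tested members of 16 gene lists called lower (left) or higher (right) in rev than in 4h, with the number tested in brackets, the number called at the bar ends, and dashed lines at the shares of all tested genes, 15.6% lower and 15.1% higher. Naive pluripotency, with 20 of 22 lower, reaches farthest to the left of these 16 lists, and ribosomal proteins, with 62 of 82 higher, farthest to the right.

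Naive pluripotency genes fell together. Of 22 tested, 20 were called lower and none higher, with a median of -1.59, and 14 did not overlap between the groups. Of all tested genes 15.6% were called lower, and 10.8% had rev below 4h without overlap. In bulk RNA, fewer cells in a state and less RNA per cell cannot be told apart. Esrrb, an orphan nuclear receptor of the naive network, read 15.3, 7.41, 72.8 and 76.1 CPM in 4h and 2.38, 0.826, 3.24 and 1.35 CPM in rev (log2 fold change -4.10 ± 0.55 SE, adjusted p = 0.000223). It read 2.43, 3.21 and 4.24 CPM at 0h and 1.59, 1.41, 2.27 and 2.52 CPM in 2h, and 4h was the group that stood out. Nanog read 14.1, 19.5, 88.3 and 79.5 CPM in 4h and 8.97, 8.67, 13.4 and 13.8 CPM in rev (log2 fold change -2.01 ± 0.41 SE, adjusted p = 0.0036), and the clone 8 libraries of 4h were highest. Klf2 read 21.4, 20.7, 50.5 and 41.1 CPM in 4h and 4.83, 4.34, 9.45 and 6.64 CPM in rev (log2 fold change -2.38 ± 0.18 SE, adjusted p = 2.71e-09), and Klf5 73.3, 85.9, 27.3 and 36.9 CPM in 4h and 9.74, 14.9, 15.5 and 12.7 CPM in rev (log2 fold change -2.03 ± 0.32 SE, adjusted p = 0.000437). Klf5 was higher in clone 4, unlike Esrrb and Nanog. Prdm14, which represses DNA methyltransferases, was at or under 3 counts in every rev library, and its 4h mean of 2.92 CPM was at least 9.3-fold above that floor. Against 2h the median of the list was 0.09, with 1 gene lower and 1 higher in rev. The exceptions were Dppa5a (59.3, 51.3, 74.9 and 48.6 CPM in 4h and 76, 48.1, 52.3 and 47.5 CPM in rev, adjusted p = 0.829) and Klf4 (1.83, 2.47, 2.96 and 3.02 CPM in 4h and 2.94, 3.51, 2.96 and 2.08 CPM in rev, adjusted p = 0.842). Without the 2 shallowest 4h libraries 19 of 21 were lower, and with every library thinned to the shallowest 11 of 15.

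Of 9 markers of the 2-cell-like state, a rare state of pluripotent cultures, 4 passed the filter on low counts. All 4 were called lower at low levels. The filter can pass genes that are high in a single group, here 4h, so the shared direction may be partly set by it. Tcstv3 and Gm4340, which did not pass, were at 0 in 4h but not in rev. Zscan4d read 3.05, 4.94, 5.69 and 4.15 CPM in 4h and 0.35, 0.619, 0.564 and 0.934 CPM in rev (log2 fold change -2.89 ± 0.36 SE, adjusted p = 3.26e-06). Zscan4c was at or under 3 counts in every rev library, and its 4h mean of 3.16 CPM was at least 10.1-fold above that floor. These genes are near-identical copies, so reads may be split among them. With every library thinned to the shallowest, none of the 4 passed the filter on low counts.

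Core pluripotency factors split. Sox2 fell from 89.8, 81, 141 and 133 CPM to 51.9, 44.5, 50.2 and 58.7 CPM (log2 fold change -1.09 ± 0.12 SE, adjusted p = 4.26e-07), to the level of 2h at 53.2, 60.2, 62.8 and 56 CPM, while 0h was at 20.8, 23.5 and 22.8 CPM. Tdgf1, the Nodal co-receptor, fell (log2 fold change -1.16 ± 0.12 SE, adjusted p = 3.41e-07), as did Utf1 (log2 fold change -0.77 ± 0.10 SE, adjusted p = 6.32e-06) and Sall4 (log2 fold change -0.56 ± 0.11 SE, adjusted p = 0.000386). Pou5f1 went the other way, from 100, 102, 102 and 90.8 CPM to 158, 133, 153 and 139 CPM (log2 fold change 0.56 ± 0.11 SE, adjusted p = 0.000583), and so did Lin28b, a blocker of let-7 maturation (log2 fold change 0.69 ± 0.15 SE, adjusted p = 0.00164). The groups did not overlap for any of these 6 genes, and 2 of the 8 listed, Trim71 and Lin28a, were not called.

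Formative and primed genes split as well, with 5 of 17 lower and 5 higher. Among the lower were the transcription factors Foxd3, Lef1, Tcf15 and Otx2. Foxd3, a forkhead factor of pluripotent cells, read 9.16, 7.41, 14.3 and 11.7 CPM in 4h and 4.69, 2.27, 4.93 and 5.6 CPM in rev (log2 fold change -1.26 ± 0.23 SE, adjusted p = 0.000281). Higher were Dnmt3b, Dnmt3a, Pou3f1, Fgf5 and Sox3, which mark formative cells. Dnmt3b, a de novo DNA methyltransferase, read 420, 398, 408 and 440 CPM in 4h and 714, 661, 709 and 663 CPM in rev (log2 fold change 0.72 ± 0.07 SE, adjusted p = 2.35e-07), and Sox3 24.4, 13.8, 12.1 and 15.1 CPM in 4h and 40.8, 30.1, 47.7 and 41.2 CPM in rev (log2 fold change 1.33 ± 0.21 SE, adjusted p = 0.000226). Dnmt3b was called lower in rev than in 0h (log2 difference -0.45, adjusted p = 0.000534). The opposing enzymes Tet1 and Tet2, which oxidise methylcytosine, fell to 40.7% and 38.4% of 4h (log2 fold change -1.30 ± 0.18 SE, adjusted p = 0.000123 and log2 fold change -1.38 ± 0.18 SE, adjusted p = 1.44e-05), and Dnmt3l, the cofactor of the de novo enzymes, to 41.3%.

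**Figure D4:**
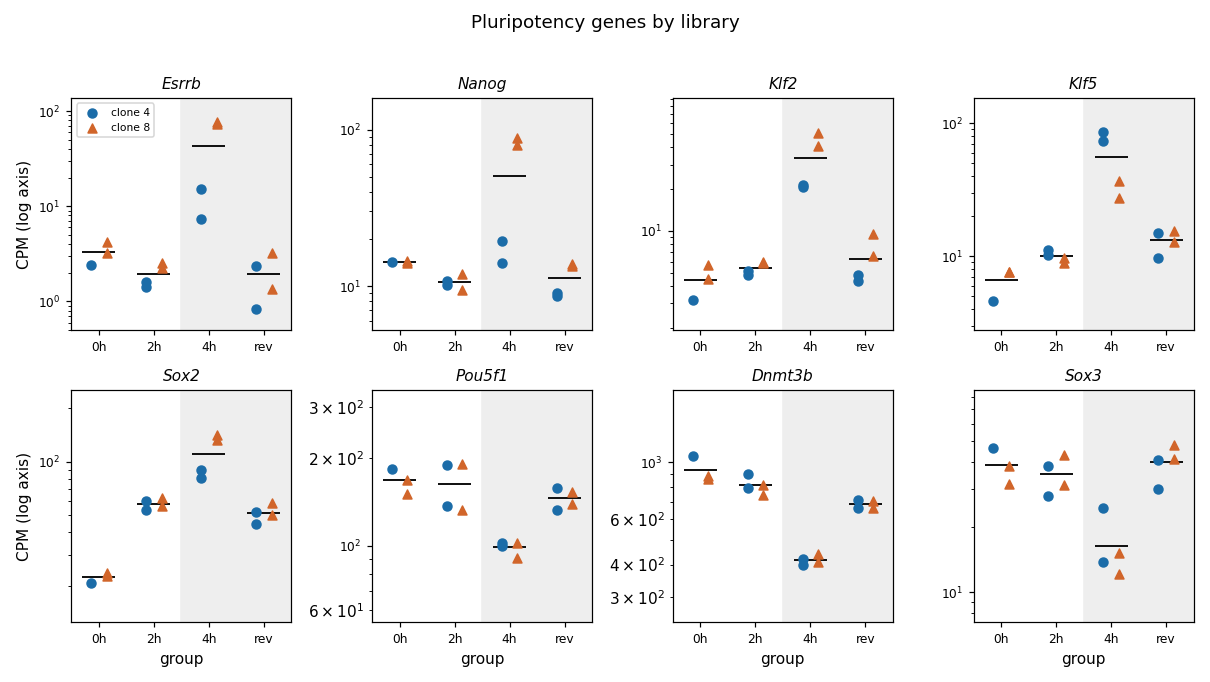
CPM per library on a log axis for 8 pluripotency genes in 0h, 2h, 4h and rev, with circles for clone 4, triangles for clone 8, bars for group means and shading over the groups compared. Esrrb, Nanog, Klf2, Klf5 and Sox2 are higher in all 4 libraries of 4h than in all 4 of rev, and Pou5f1, Dnmt3b and Sox3 are lower.

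Of 7 neural genes, 2 were called lower and 2 higher. Sox1, an early neural factor, read 24.4, 30.1, 40.1 and 33.9 CPM in 4h and 7.85, 7.12, 5.78 and 4.98 CPM in rev (log2 fold change -2.27 ± 0.24 SE, adjusted p = 6.12e-07), and Pax6 13.4, 10.6, 10.5 and 9.05 CPM in 4h and 2.24, 2.79, 3.24 and 1.97 CPM in rev (log2 fold change -2.09 ± 0.24 SE, adjusted p = 1.04e-06). Both stayed above 2h in rev, with log2 differences of 1.43 and 1.42 (adjusted p = 0.00206 and 0.00265). Nes, the intermediate filament of neural progenitors, went up, from 34.2, 33.1, 12.7 and 11.7 CPM to 46.6, 49.6, 44.8 and 38.2 CPM (log2 fold change 1.08 ± 0.24 SE, adjusted p = 0.0036). Of 9 mesendoderm genes none was called lower and 2 were called higher, Foxa2 and Gsc, which were at or under 3 counts in all 4h libraries. The rev mean of Foxa2, 2.27 CPM, was at least 2.07-fold above that floor.

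Genes of other signalling pathways were among the calls. Of all tested genes 15.6% were lower and 15.1% higher. The shares were 33.3% and 16.7% in the LIF list and 28.6% and 14.3% in the Nodal and Activin list. In the Wnt list 33.3% were lower. The higher shares of the LIF and Nodal lists were thus near the background. In the LIF pathway, which supports the naive state, 4 of 12 genes were lower and 2 higher, with medians of -0.55 in clone 4 and 0.29 in clone 8. The lower ones were the receptor Lifr (log2 fold change -1.90 ± 0.18 SE, adjusted p = 9.1e-08), its partner Il6st (log2 fold change -0.86 ± 0.15 SE, adjusted p = 0.000134), Socs2 (log2 fold change -1.08 ± 0.13 SE, adjusted p = 1.95e-06) and Pim1. In the Nodal and Activin pathway 4 of 14 were lower, Lefty2, Smad3, Smad7 and Tgif1, and 2 higher. Lefty2, a Nodal antagonist, read 50.1, 43.4, 73.3 and 82.6 CPM in 4h and 16.8, 11.6, 14 and 13.1 CPM in rev (log2 fold change -2.11 ± 0.16 SE, adjusted p = 2.71e-09). Tgif1, a repressor of Smad targets, was left at 46.3% (log2 fold change -1.11 ± 0.11 SE, adjusted p = 1.15e-07), and Skil, another Smad repressor, rose from 132, 154, 143 and 167 CPM to 252, 267, 253 and 279 CPM (log2 fold change 0.82 ± 0.10 SE, adjusted p = 1.57e-06). Of 15 Wnt pathway genes 5 were lower, among them the nuclear effectors Lef1 (log2 fold change -1.08 ± 0.14 SE, adjusted p = 6.32e-06), Tcf7l2 (log2 fold change -1.01 ± 0.24 SE, adjusted p = 0.00355) and Tcf7l1 (log2 fold change -0.83 ± 0.15 SE, adjusted p = 0.000219), and none higher. Without the 2 shallowest 4h libraries 3 of 14 Wnt genes were lower.

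Glucose transporters fell. Of 18 glycolytic genes 7 were called lower and 2 higher, with a median of -0.18. Slc2a3, the high-affinity glucose transporter of epiblast cells, read 154, 140, 191 and 221 CPM in 4h and 38.3, 26.8, 47.4 and 42.3 CPM in rev (log2 fold change -2.19 ± 0.11 SE, adjusted p = 1.74e-11), against 27.4, 47 and 46.2 CPM at 0h. Slc2a1, the general glucose transporter, fell to 44.7% (log2 fold change -1.16 ± 0.09 SE, adjusted p = 8.87e-09), and Pfkp, the platelet form of phosphofructokinase, from 90.4, 78.7, 81.5 and 103 CPM to 36.9, 27.3, 20.4 and 26.6 CPM (log2 fold change -1.66 ± 0.17 SE, adjusted p = 8.79e-07). Pfkfb3, Gpi1, Aldoa and Hk2 were the others called lower. Ldha, which makes lactate, rose from 161, 156, 155 and 185 CPM to 310, 305, 259 and 230 CPM (log2 fold change 0.74 ± 0.09 SE, adjusted p = 4.95e-06), and Pgk1 was also higher. Hk2 lost its call without rev clone4_2 (adjusted p = 0.0944), and Pgk1 without 4h clone4_2, 4h clone8_2 or rev clone4_1 (adjusted p = 0.0558 to 0.0872). Of 10 hypoxia genes 5 were lower and none higher, with a median of -0.58, among them Egln3 (log2 fold change -1.15 ± 0.20 SE, adjusted p = 0.000171) and P4ha1 (log2 fold change -1.06 ± 0.17 SE, adjusted p = 5.06e-05), hydroxylases that are HIF targets, and Pdk1 (log2 fold change -0.74 ± 0.11 SE, adjusted p = 4.9e-05), which keeps pyruvate out of mitochondria. After thinning 3 of 8 hypoxia genes were lower.

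Cholesterol synthesis rose. Of 23 genes 15 were called higher and 1 lower, with a median of 0.69, and 15 and 1 were also called without the 2 shallowest 4h libraries. Msmo1, a methylsterol oxidase, read 66.6, 92.1, 88.3 and 66 CPM in 4h and 140, 154, 189 and 198 CPM in rev (log2 fold change 1.10 ± 0.12 SE, adjusted p = 1.04e-06), with no overlap. Mvd, the decarboxylase that ends the mevalonate branch, read 18.9, 16.5, 33 and 24.1 CPM in 4h and 39.1, 36.7, 94.6 and 85.9 CPM in rev (log2 fold change 1.40 ± 0.15 SE, adjusted p = 1.52e-06), and clone 8 was higher in both groups. Sqle (log2 fold change 0.60 ± 0.09 SE, adjusted p = 3.97e-05), Hmgcs1 (log2 fold change 0.69 ± 0.15 SE, adjusted p = 0.00228) and the sterol carrier gene Stard4 (log2 fold change 1.15 ± 0.10 SE, adjusted p = 2.95e-08) were also higher. The 2h libraries held about as much as rev, with a list median of -0.08 between rev and 2h, so 4h was the low group. Dhcr7 was the member called lower (log2 fold change -0.34 ± 0.11 SE, adjusted p = 0.0216), and it lost the call without 4h clone4_2, 4h clone8_1, rev clone4_2 or rev clone8_1 (adjusted p = 0.0533 to 0.0825). Insig1 (log2 0.34, adjusted p = 0.137) did not pass. Of 14 fatty acid synthesis genes 7 were higher and none lower, among them Fasn (log2 fold change 0.56 ± 0.13 SE, adjusted p = 0.00427) and Acly (log2 fold change 0.60 ± 0.08 SE, adjusted p = 1.63e-05), and 4 were higher without the 2 shallowest 4h libraries.

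All 16 cholesterol genes with a promoter in the RefSeq table hold CCAAT, the NF-Y box, on 1 strand or the other, against 43.7% of tested genes. The box is not particular to genes that rose. It stood in 19 of 20 mitotic genes, with a median change of -0.04, and in all 4 2-cell-like genes, which were called lower. It also stood in 14 of 15 genes of the unfolded protein response and in 19 of 62 ribosomal protein genes. The sterol motif TCACNCCAC stood in 1 of the 16 and in 1.51% of all. Promoters of Hmgcs1 (chr13:119690101-119690400, + strand), of Msmo1 (chr8:64733529-64733828, - strand) and of Idi1 (chr13:8885356-8885655, + strand) are shown, the first pair for genes that rose and Idi1 for a member whose change was not called. Capitals mark CCAAT on either strand and, in Hmgcs1, the sterol motif.
Hmgcs1: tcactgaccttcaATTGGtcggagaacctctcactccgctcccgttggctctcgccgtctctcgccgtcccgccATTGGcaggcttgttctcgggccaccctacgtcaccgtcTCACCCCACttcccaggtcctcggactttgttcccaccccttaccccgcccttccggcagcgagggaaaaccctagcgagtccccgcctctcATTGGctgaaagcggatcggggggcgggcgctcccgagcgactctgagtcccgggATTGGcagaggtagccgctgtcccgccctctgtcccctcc
Msmo1: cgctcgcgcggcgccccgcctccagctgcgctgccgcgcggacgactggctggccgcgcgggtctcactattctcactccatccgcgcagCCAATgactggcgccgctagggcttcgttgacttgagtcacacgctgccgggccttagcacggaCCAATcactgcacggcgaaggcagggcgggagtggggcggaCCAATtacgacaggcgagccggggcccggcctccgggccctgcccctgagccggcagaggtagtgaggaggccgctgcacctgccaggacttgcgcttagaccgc
Idi1: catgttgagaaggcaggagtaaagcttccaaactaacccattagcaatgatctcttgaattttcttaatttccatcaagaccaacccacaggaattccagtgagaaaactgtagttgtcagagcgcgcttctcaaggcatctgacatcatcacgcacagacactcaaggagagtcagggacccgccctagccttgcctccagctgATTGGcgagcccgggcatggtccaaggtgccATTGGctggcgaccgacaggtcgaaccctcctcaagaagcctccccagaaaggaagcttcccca
In Hmgcs1 the sterol motif begins at -137 and the box at -237, -176, -45 and 11, in Msmo1 the box begins at -160, -96 and -55, and in Idi1 at -45 and -14. A gene that was not called thus carries the box as well.

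Genes of the integrated stress response rose. ATF4 is their main transcription factor. Of 20 tested, 12 were called higher and 1 lower, with a median of 0.33. The serine synthesis genes Phgdh (log2 fold change 1.15 ± 0.15 SE, adjusted p = 5.36e-06) and Psat1 (log2 fold change 0.73 ± 0.09 SE, adjusted p = 1.68e-06), the folate enzyme Mthfd2 (log2 fold change 0.80 ± 0.10 SE, adjusted p = 4.79e-06) and the cystine transporter Slc7a11 (log2 fold change 1.70 ± 0.23 SE, adjusted p = 9.59e-06) were among them. Trib3, a pseudokinase induced by ATF4, read 0, 1.48, 4.78 and 4.9 CPM in 4h and 3.29, 4.65, 20.6 and 18.9 CPM in rev (log2 fold change 1.90 ± 0.41 SE, adjusted p = 0.00355). Ddit3 read 3.67, 3.7, 2.96 and 2.64 CPM in 4h and 5.82, 6.92, 13.7 and 8.82 CPM in rev (log2 fold change 1.42 ± 0.27 SE, adjusted p = 0.000504). Sesn2 was the member called lower (log2 fold change -0.57 ± 0.11 SE, adjusted p = 0.000455), and Atf4 itself was not called (adjusted p = 0.113). Between rev and 2h the list median was -0.12, with 2 genes lower and none higher. Of 16 genes of the unfolded protein response 7 were higher, with Herpud1 (log2 fold change 1.43 ± 0.15 SE, adjusted p = 5.74e-07) and the chaperone Hspa5 (log2 fold change 0.98 ± 0.13 SE, adjusted p = 4.08e-05) leading, and Xbp1 was lower (log2 fold change -0.68 ± 0.12 SE, adjusted p = 0.000224).

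**Figure D5:**
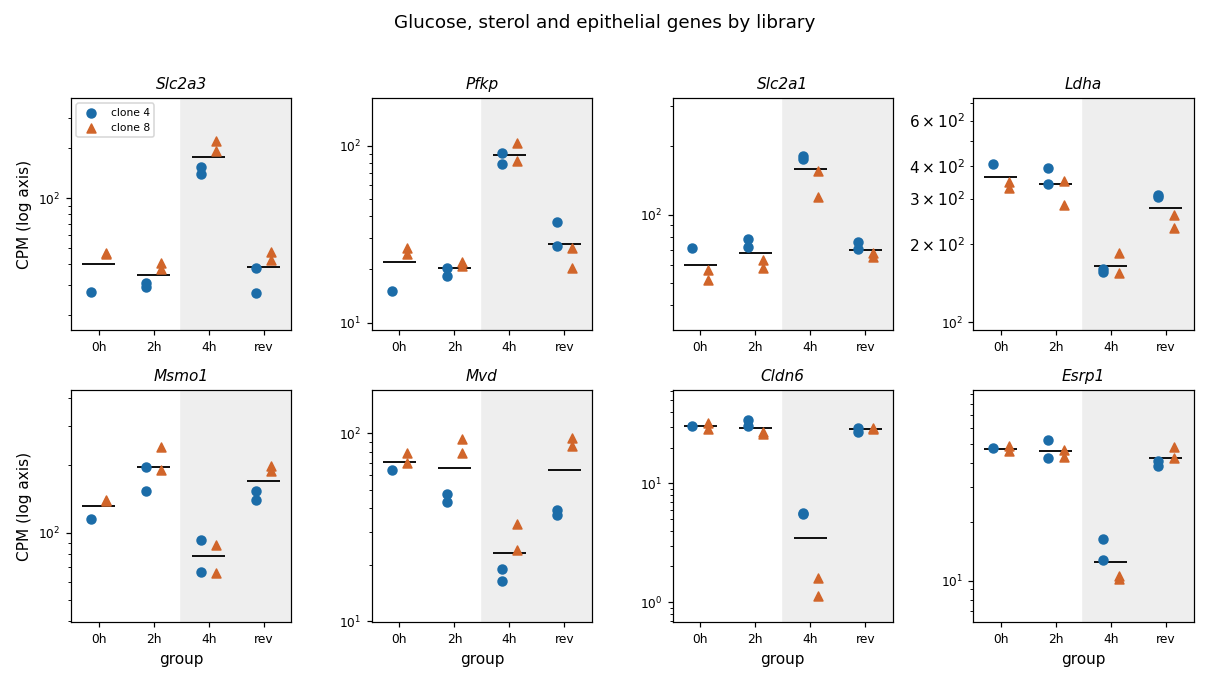
CPM per library on a log axis for glucose genes (Slc2a3, Pfkp, Slc2a1, Ldha), sterol genes (Msmo1, Mvd) and epithelial genes (Cldn6, Esrp1) in 0h, 2h, 4h and rev, with circles for clone 4, triangles for clone 8, bars for group means and shading over the groups compared. The 4h libraries are above rev for Slc2a3, Pfkp and Slc2a1 and below it for the other 5 genes.

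Ribosomal protein mRNAs rose. Of 82 ribosomal protein genes 62 were called higher and 5 lower, with a median of 0.55. Rplp0, of the ribosomal stalk, read 230, 251, 298 and 259 CPM in 4h and 414, 435, 480 and 475 CPM in rev (log2 fold change 0.80 ± 0.08 SE, adjusted p = 1.67e-07). Among the 5 lower were Rps26, Rpl39l, Rpl28 and Rpl29, of which Rpl39l lost its call without 4h clone8_1, 4h clone8_2, rev clone8_1 or rev clone8_2 (adjusted p = 0.0726 to 0.146), Rpl28 without 4h clone4_2, 4h clone8_2, rev clone4_1, rev clone4_2 or rev clone8_2 (adjusted p = 0.0505 to 0.171), and Rpl29 without 4h clone4_1, 4h clone4_2, 4h clone8_1, rev clone4_1, rev clone4_2 or rev clone8_1 (adjusted p = 0.0556 to 0.151). Of 77 nuclear-encoded subunits of oxidative phosphorylation 39 were higher and 1 lower (median 0.31), of 37 proteasome subunits 26 and 1 (median 0.44), and of 66 histone genes 49 and 2 (median 0.72). Cox4i1, a cytochrome oxidase subunit, read 26.9, 42.5, 48.3 and 34.3 CPM in 4h and 83.1, 65.4, 84 and 67.5 CPM in rev (log2 fold change 0.97 ± 0.16 SE, adjusted p = 0.000243). Hist3h2ba, a histone H2B gene, read 4.89, 3.7, 5.92 and 6.03 CPM in 4h and 24, 22.3, 21 and 20.4 CPM in rev (log2 fold change 2.09 ± 0.15 SE, adjusted p = 2.46e-09), and Slbp, which binds the histone mRNA stem-loop, 22.6, 33.1, 28.9 and 25.6 CPM in 4h and 46.5, 65.5, 51.7 and 53.3 CPM in rev (log2 fold change 0.96 ± 0.13 SE, adjusted p = 5.62e-06). Without the 2 shallowest 4h libraries the counts higher were 50, 26, 17 and 39, and after thinning to the shallowest library 19 of 73 subunits of oxidative phosphorylation were higher. Between rev and 2h the medians of these lists were, in the same order, -0.08, -0.02, -0.06 and 0.04. None of their members was called between rev and 2h, so 4h was the low group here too.

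Transcript length moved with these calls. The median longest transcript was 1076 nt for ribosomal proteins, 1129 nt for oxidative phosphorylation, 1883 nt for the proteasome and 625 nt for histones, against 3362 nt for all tested genes. Among 12181 protein-coding genes in 8 classes of length, 25.7% of the shortest class (243 to 1686 nt) were called higher and 10.5% lower, and in the longest (6523 nt and above) 11.2% higher and 24.8% lower. Spearman's rho of the log2 fold change with length was -0.146 across these genes, which are not independent replicates, and 0.038 for rev against 2h. The ribosome biogenesis list, with a median of 3154 nt, had 6 of 50 higher and 5 lower, and 2 higher without the 2 shallowest 4h libraries. The part of length in the results was not tested. Mitochondrially encoded mRNAs went down, 6 of 7 tested, with a median of -1.51, but 1 of 7 was called without the 2 shallowest 4h libraries and 2 without rev clone4_1 or rev clone8_1.

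Of 25 DNA replication genes 11 were higher and none lower, with a median of 0.23, such as Pcna, the replication clamp (log2 fold change 0.43 ± 0.09 SE, adjusted p = 0.00119). Without the 2 shallowest 4h libraries 7 were higher. Of 24 mitotic genes 5 were lower and 3 higher, with a median of -0.04, near the background, and 2 were lower after thinning to the shallowest library. Ccnd3, a D-type cyclin, fell from 22, 20, 29.4 and 24.5 CPM to 12.5, 10.8, 12.3 and 10.1 CPM (log2 fold change -1.07 ± 0.13 SE, adjusted p = 3.94e-06).

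Other lists had fewer calls or calls in both directions, where 15.6% of all tested genes were lower and 15.1% higher. Several shares were near these, such as 16.7% each way for lysosome and autophagy genes and 12.5% lower for receptor tyrosine kinases. Of 23 Polycomb genes 7 were lower and 2 higher, of 21 targets of SRF and actin genes 7 and 2, of 16 p53 targets 5 and 1, and of 16 heat shock genes 4 and 2. Of 15 basement membrane genes 6 were lower and 5 higher, of 24 lysosome and autophagy genes 4 and 4, of 15 Eph receptors and ephrins 4 and 2, and of 16 receptor tyrosine kinases 2 and 4. Of 14 BMP pathway genes none was lower and 3 were higher. Of 26 genes of mRNA decay 2 were lower and 2 higher, 7.69% each way and below the background. Of 37 splicing factors 4 were lower and 11 higher, with 6 higher without the 2 shallowest 4h libraries. After thinning to the shallowest library 3 of 18 targets of SRF and actin genes were lower.

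Among the 15 largest falls of called genes with at least 10 CPM on average were Esrrb, Lncenc1, Bnc2, Morc1, Nlrp12, Zfp57, Klf2, Slfn9, Mov10, Sox1, Spry4, Arid5b, Zfp981 and Slc2a3. Spry4 had been raised at least 2-fold by 2 h of induction. Lncenc1, a noncoding RNA of embryonic stem cells, read 98.4, 101, 123 and 117 CPM in 4h and 17.5, 14.7, 8.74 and 8.61 CPM in rev (log2 fold change -3.20 ± 0.19 SE, adjusted p = 1.32e-09), against 10.4, 11 and 11.9 CPM at 0h. Bnc2, a zinc-finger protein, read 32.4, 28.9, 54.2 and 43.7 CPM in 4h and 4.27, 3.51, 5.5 and 4.46 CPM in rev (log2 fold change -3.12 ± 0.18 SE, adjusted p = 7.98e-11). Zfp57, which protects imprinted methylation, kept 17.3% (log2 fold change -2.53 ± 0.15 SE, adjusted p = 7.98e-11), Morc1, a silencer of transposons, 14.8%, and Mov10, an RNA helicase, 19.9%, and Arid5b, a chromatin factor, 21.3%. All of the genes named here but Spry4 had their highest group mean in 4h.

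The 15 largest rises were Cldn6, Cldn7, Rmrp, Enpp2, Kif1a, Hist3h2ba, App, Trib3, Krt8, Lor, Rprl3, Epha1, Rdh11, Esrp1 and Amot. Cldn6, a tight-junction claudin of early embryos, read 5.5, 5.68, 1.59 and 1.13 CPM in 4h and 29.2, 27.1, 28.5 and 29.2 CPM in rev (log2 fold change 3.14 ± 0.29 SE, adjusted p = 1.99e-06), against 30.5, 34, 27.3 and 25.8 CPM in 2h and 30.3, 28.7 and 32.5 CPM at 0h. Its 4h libraries were the lowest of the 4 groups, and all 4 rev libraries lay above them. Cldn7 read 1.22, 3.21, 0.911 and 1.51 CPM in 4h and 17.4, 13.3, 12.4 and 10.9 CPM in rev (log2 fold change 2.92 ± 0.23 SE, adjusted p = 5.96e-09), and Esrp1, the splicing regulator of epithelial cells, 12.8, 16.3, 10.2 and 10.6 CPM in 4h and 38.2, 40.7, 42.2 and 47.8 CPM in rev (log2 fold change 1.76 ± 0.13 SE, adjusted p = 2.71e-09). Rmrp, the RNA of RNase MRP, rose from 27.5, 15.8, 36.9 and 23.7 CPM to 177, 129, 201 and 75.7 CPM (log2 fold change 2.48 ± 0.39 SE, adjusted p = 0.00078), and Rprl3, related to the RNA of RNase P, from 13.4, 34.8, 33.5 and 20 CPM to 99.6, 66.3, 156 and 46.5 CPM (log2 fold change 1.83 ± 0.51 SE, adjusted p = 0.0212). All 4 tested ribozyme genes were called higher. Rprl3 lost its call without 4h clone8_2 or rev clone8_1 (adjusted p = 0.0619 to 0.0778). Enpp2, the enzyme autotaxin, read 3.05, 2.72, 4.1 and 1.51 CPM in 4h and 12.7, 12.1, 15.4 and 18.2 CPM in rev (log2 fold change 2.32 ± 0.21 SE, adjusted p = 4.28e-08), and App, the amyloid precursor, 5.5, 5.43, 3.87 and 2.26 CPM in 4h and 17.9, 15.7, 16.2 and 17.2 CPM in rev. Kif1a, a kinesin motor, and Amot, a YAP-binding junction protein, rose more in clone 8, by 2.70 and 2.43 on the log2 scale. Epha1, an Eph receptor, read 14.1, 7.9, 1.14 and 0 CPM in 4h and 17.9, 17.3, 14.1 and 13.6 CPM in rev (log2 fold change 1.81 ± 0.58 SE, adjusted p = 0.0376). It lost its call without 4h clone4_2, 4h clone8_1, rev clone4_1, rev clone4_2, rev clone8_1 or rev clone8_2 (adjusted p = 0.0535 to 0.107).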

How the data were processed

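RNA was sequenced from 15 libraries made from 1 µg of total RNA after ribosomal RNA depletion with NEBNext kits, per the labels' protocols. The authors discarded a 0h library, per the labels. The table deposited by the authors holds raw counts per gene. Per the submitters' processing notes, bcl2fastq 2.19.1, STAR 2.5.3a and mm10 were used. The counting tool, strand setting and annotation are not given in the sources used here. Of 52636 identifiers, 52489 were matched to GENCODE M21 (GRCm38) for symbols and transcript lengths.

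Genes were kept by edgeR's filter (minimum count 10, minimum total count 15), scaled with TMM and tested with edgeR 4.0.16's quasi-likelihood test in R 4.3.3, on all 15 libraries with group and clone as terms and Benjamini-Hochberg adjustment over 13451 genes. The clone difference is an interaction term. CPM uses TMM-scaled totals, and the floor is 3 counts per library, which covers counting error only; the labels name no molecular identifiers. Total counts were 1552022 to 13004556, and the 4h libraries, with the fewest counts, give low genes the least precision. On simulated counts with 200 genes changed by 2 on the log2 scale, 193 were recovered for rev against 4h (12 false calls), 145 for the clone difference (14) and 198 for 2h against 0h (9).

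Members and gene lists were chosen with earlier results of these data known. Named genes are list members, the 15 largest falls and rises among called genes with a mean of at least 10 CPM, the same direction in both clones and a symbol that is no clone number, the 10 raised mRNAs with the largest falls, and the 10 most abundant with no call and a log2 change under 0.5 in size, except for a few that are not reported here. Enc1, Hmox1, Nefm and Srxn1 were chosen after their values were seen. Alternatives covered scaling, test (DESeq2 1.42.0), filter, libraries, clone term, replicate block, abundant genes, depth and leaving out each library. Of 179 named genes, 53 share exon positions with another annotated gene, so their counts are uncertain where reads were assigned without strand: Adgre5, Aldoa, App, Ccnd1, Ccnd3, Cox4i1, Csrnp1, Ddit3, Dnmt3a, Dnmt3l, Dusp1, Dusp5, Dusp8, Elk4, Enpp2, Epha1, Esrp1, Foxd3, Gab1, Gpi1, Hmgcs1, Idi1, Irs2, Jun, Junb, Krt8, Ksr1, Lef1, Lin28a, Mafk, Mxi1, Nab2, Nefm, Nlrp12, Otx2, Pfkp, Phlda1, Pim1, Pou3f1, Pou5f1, Rmrp, Rpl28, Sall4, Slbp, Slc2a1, Sox1, Spred3, Spry1, Tcf7l1, Tet2, Trim71, Zfp36l1 and Zfp36l2.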

Additional observations from a re-analysis of the deposited data

Results flagged for a closer look

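In groups of 4 libraries, 1 library stood apart from the other 3 for 8 of the 358 values tested by Dixon's test, while chance flags about 1 in 20 groups. These were Aldoa in 4h clone8_1 (427 CPM), Dppa5a in rev clone4_1 (76 CPM), Dusp8 in 4h clone8_2 (0.377 CPM), Phgdh in 4h clone4_2 (22 CPM), Rps26 in 4h clone4_2 (441 CPM), Sox13 in 4h clone4_2 (50.4 CPM), Tdgf1 in 4h clone4_2 (125 CPM) and Tgif1 in 4h clone4_2 (78.7 CPM).

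The change from 4h to rev differed between the clones, by the test of the difference itself, for 43 of the named genes. The values that follow are the log2 change in clone 8 minus that in clone 4. It was above 0 for Epha1 3.57, Fosl2 3.35, Nefm 3.15, Jun 3.06, Lor 2.98, Kif1a 2.7, Egr3 2.64, Amot 2.43, Phlda1 2.4, Fos 2.21, Dusp5 2.11, Cldn6 2.02, Myc 2.01, Junb 1.82, Krt8 1.76, Vim 1.73, Nab2 1.72, Dusp14 1.64, Srxn1 1.55, Klf5 1.51, Dusp1 1.46, Irs2 1.32, Rdh11 1.29, Egr1 1.26, Pfkfb3 1.24, Nes 1.24, Tcf7l2 1.2, Dusp6 1.16, Zfp36l2 1.01, Dusp4 0.98, Spred3 0.95, Hmgcs1 0.94, Klf10 0.87 and Enc1 0.81. It was below 0 for Slfn9 -2.86, Esrrb -2.35, Nanog -1.68, Mov10 -1.55, Lncenc1 -1.16, Zfp981 -1.12, Insig1 -1.04, Dnajb1 -0.84 and Epha2 -0.74.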

How the results depend on the processing

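Of the 150 named genes called between rev and 4h, 133 kept the call in every leave-one-out fit that tested them. Prdm14 is among these 133, but it was tested in 5 of the 8 fits. Under at least 1 alternative of any kind, 62 of the 150 lost the call. Calls were lost for 3 named genes with DESeq2, 13 after thinning, 26 with no clone covariate and 15 without the 2 shallowest 4h libraries, an alternative chosen after seeing the data. With total count scaling 37 lost the call in the same direction, and 7 more lost it as their log2 fold changes turned to 0.010 for Dusp16, 0.098 for Dhcr7, 0.064 for Ccnd1, 0.010 for Hk2, 0.17 for Pfn1, 0.067 for Rpl28 and 0.14 for Rpl29, less than the shift of 0.45 that this scaling gives the median gene.

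Counts also moved. Total count scaling gave 2039 genes called at least 2-fold in place of 1317, 44 with a clone difference in place of 377, 266 between 2h and 0h in place of 867, and 12 raised mRNAs called lower in place of 26. With every library thinned to the shallowest, the counts were 1723 for rev against 4h in place of 4140, 598 at least 2-fold, 103 by clone and 255 for 2h against 0h. For 2h against 0h the count was 1305 with no filter, 427 with no clone covariate, 1499 when the 20 most abundant genes and all mitochondrial ones were left out, and 1327 with edgeR's older quasi-dispersion (added after seeing the data). The clone difference was called for 210 genes with DESeq2 and for 220 without the 2 shallowest 4h libraries. With no minimum level (added after seeing the data) the raised mRNAs were 225, of which 40 were called lower. Leaving out 1 library gave 3285 to 3972 for rev against 4h, 1169 to 1381 at least 2-fold, 195 to 354 by clone, 308 to 1077 for 2h against 0h, 71 to 103 raised mRNAs and 21 to 29 of them called lower. For 2h against 0h the lowest count came without 0h clone4_1, and 513 and 483 were called without 2h clone4_2 and 2h clone8_1.

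With a replicate block the count was 4130 for rev against 4h, 389 by clone and 653 for 2h against 0h, with 86 raised mRNAs and 26 called lower. Under this replicate block Phlda1 (adjusted p = 0.0612), Epha1 (0.0684) and Pfn1 (0.0547) were not called, and no other named gene called between rev and 4h lost its call. Deviations of same-numbered libraries from group and clone means were correlated at 0.0364 to 0.0458. With 2 libraries per group and clone these deviations mirror each other, so the values cannot show whether the numbers pair the libraries. Except where stated, the cause was not tested. The 4h libraries have the lowest depth, and a count of 0 there allows up to 0.683 to 1.83 CPM, against 0.210 to 0.423 CPM in rev.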
